A study of Mus musculus with 48 samples.

Results

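The genes described here are 10 members of the bone morphogenetic protein (BMP) pathway: the receptors Bmpr1a, Bmpr1b and Bmpr2, the SMAD genes Smad1, Smad5 and Smad7, and the ID genes Id1, Id2, Id3 and Id4. They were chosen by gene symbol, with earlier results of these data known. Each was found among the 24421 symbols of all 6 deposited tables. All 10 were abundant enough to be tested in each of the 12 comparisons. The data are bulk RNA-seq of mouse astrocytes, a glial cell type, from cortex, hippocampus and olfactory bulb. The study followed these cells over early postnatal ages and compared Gabbr1 cKO with control at P28. Gabbr1 codes for part of the GABA-B receptor, and cKO stands for conditional knockout.

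The developmental groups are astrocytes of postnatal day 1 (P1), day 7 (P7) and day 14 (P14), with 3 libraries for each region and age and 4 for cortex at P14. Their labels give neither genotype nor treatment. The P28 groups are named Gabbr1 control and Gabbr1 cKO, with 4 and 4 libraries in the cortex, 2 and 4 in the hippocampus and 3 and 3 in the olfactory bulb. Tamoxifen, the drug that activates inducible Cre recombinases, is named for 15 of the 20 P28 libraries: all of hippocampus and olfactory bulb, and 2 control and 1 cKO of cortex. The labels name no Cre line and do not say which alleles the controls carry. They do not say that libraries of a group came from separate animals, so p values measure the spread between these libraries, which may be technical.

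BMP ligands bind a complex of the type I receptors BMPR1A and BMPR1B with the type II receptor BMPR2. The complex phosphorylates SMAD1 and SMAD5, which enter the nucleus with SMAD4, whereas SMAD7 is an inhibitory SMAD that blocks the receptors. The ID genes are classic direct targets of the pathway: ID proteins bind E proteins such as TCF12 and so keep them from pairing with proneural factors, and in the developing brain BMP signals are known to favour astrocyte over neuronal fate.

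Stretches before an annotated RefSeq start of Id2, Id4, Bmpr1a and Bmpr1b are shown because these genes were called higher at P14 than at P1 in all 3 regions and hold, within 250 bases before an annotated start, a short sequence to which SMAD proteins are known to bind. They are from RefSeq (GRCm38.p6), run 5′ to 3′ on the gene's strand, and are cut to the part outside annotated exons. Bmpr2 and Id3 meet the same rule, but their windows left too little outside exons to print. The Id4 stretch lies before the gene, whereas those of Id2, Bmpr1a and Bmpr1b lie within the GENCODE gene, before a RefSeq start inside it. Capitals mark GGCGCC, the GC-rich core of the BMP response element of ID promoters, which reads the same on both strands, and CAGAC, the SMAD-binding box, which reads GTCTG on the other strand.
Id2, chr12:25096254-25096342, minus strand: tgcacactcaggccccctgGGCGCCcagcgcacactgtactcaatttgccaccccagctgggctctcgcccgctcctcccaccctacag
Id4, chr13:48260866-48261115, plus strand: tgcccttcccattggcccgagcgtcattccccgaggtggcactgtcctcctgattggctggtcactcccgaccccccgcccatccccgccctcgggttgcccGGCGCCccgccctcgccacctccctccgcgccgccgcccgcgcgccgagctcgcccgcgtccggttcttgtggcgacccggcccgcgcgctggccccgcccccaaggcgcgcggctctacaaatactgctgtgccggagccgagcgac
Bmpr1a, chr14:34502688-34502796, minus strand: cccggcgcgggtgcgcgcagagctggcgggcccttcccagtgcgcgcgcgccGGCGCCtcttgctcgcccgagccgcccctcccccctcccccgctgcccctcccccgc
Bmpr1b, chr3:141982265-141982514, minus strand: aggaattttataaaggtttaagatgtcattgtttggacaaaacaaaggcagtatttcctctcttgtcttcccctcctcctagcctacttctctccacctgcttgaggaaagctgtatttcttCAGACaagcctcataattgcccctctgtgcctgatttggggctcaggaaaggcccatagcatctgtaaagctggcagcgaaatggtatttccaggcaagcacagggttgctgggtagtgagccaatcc

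Promoter windows were examined for 8 of the 10 genes, all but Id1 and Smad7, with 12 windows of 250 bases. GGCGCC was present in 1 window each of Id2, Id4, Bmpr1a, Bmpr2 and Smad5, and in 9.59% of all 32851 windows of that length. The member windows with GGCGCC had a GC content of 62.8% to 78.8%, against a median of 52.4% over all windows, so the share is not one over like windows. GGCGCC began 231 bases before the start in Id2, 148 in Id4 and 198 in Bmpr1a. CAGAC on either strand was present in windows of Id3, Bmpr1b and Smad5, and in 42.2% of all windows. The Bmpr1b stretch printed is 1 of its 3 windows. The motifs can share only an end base, and a match describes letters, not a binding site.

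Library depth was 1773226 to 15008466 reads in the developmental libraries and 1859933 to 6352384 at P28. Depth differed with age: hippocampus had 5098757 to 8986015 reads at P1 and 2539583 to 4248087 at P14. Olfactory bulb had 5473837 to 9062118 and 1773226 to 2669394, so low values and zeros are less certain at P14 there. All 12 astrocyte markers (Aldh1l1, Aqp4, Gfap and others) were above 0 in every library. Their sum was 24044 to 31468 normalized reads at P1 and 512348 to 571752 at P14 in the cortex, 14964 to 17429 and 446624 to 482551 in the hippocampus, and 5834 to 7885 and 145626 to 165928 in the olfactory bulb. The sum of 12 neuron markers was 10516 to 14258 at P1 and 1757 to 2128 at P14 in the cortex, 9671 to 11558 and 2335 to 2544 in the hippocampus, and 18117 to 21923 and 4647 to 5668 in the olfactory bulb, where it lay above the astrocyte sum at P1. Oligodendrocyte markers summed to 345 to 411 and 15400 to 26281, 77.6 to 94.9 and 1625 to 2365, and 115 to 201 and 1973 to 2280 at the same ages, and microglia markers to 413 to 643 and 1370 to 3070, 105 to 159.5 and 229 to 660.4, and 44.7 to 62.4 and 330.0 to 489. Oligodendrocyte precursor markers went from 131 to 168 at P1 to 1176 to 1227 at P14 in the olfactory bulb. Ependymal markers summed to 8.81 to 14.3 and 44.4 to 75.8 there. These sums differed between P1 and P14, and their part in the age differences below was not tested. The lists did not all change in the same interval. In olfactory bulb the median log2 difference from P1 to P7 was 1.83 for astrocyte and 0.22 for neuron markers. It was 0.69 for oligodendrocyte, 2.88 for microglia and 2.49 for oligodendrocyte precursor markers. From P7 to P14 these medians were 3.05, -2.98, 2.66, 0.14 and -0.21. In bulk samples, fewer cells of a type and less RNA per cell cannot be told apart. At P28, hippocampus cKO replicate 2 and olfactory bulb control replicate 2 stood apart, with 0.594% and 0.476% of reads from the ribosomal RNA gene Rn45s against 13.7% to 38.0% in all other libraries.

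The 3 receptors and Id2, Id3 and Id4 were called higher at P14 than at P1 in all 3 regions. Among these 6 genes the difference ran from 0.45 on the log2 scale for Bmpr2 in the cortex to 3.72 for Bmpr1b in the olfactory bulb. The SMAD genes did not share this course: Smad1 and Smad5 were called lower in the cortex and Smad7 in the hippocampus. The receptor calls for Bmpr2 depended on the scaling, as given with its values. Id1 was called higher in the olfactory bulb. Values below are normalized reads per library, differences are of log2(value + 1), and a gene was called where the limma p, adjusted over all genes tested, was under 0.05.

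For P14 against P1 there were 6 called higher and 2 lower of the 10 in the cortex, where 24% of 11822 genes were called higher and 40.3% lower. Hippocampus had 6 called higher and 1 lower, against 21% and 28.5% of 11578 genes. Olfactory bulb had 7 called higher and 0 lower, against 24.8% and 31.4% of 11490 genes. The median difference of the 10 genes was 0.63, 0.97 and 1.60 in the 3 regions, beside -0.27, -0.29 and -0.24 over all genes. With TMM scaling the cortex split of all genes was 3801 higher and 3655 lower in place of 2843 and 4765, and their median moved to 0.0050. With quantile normalization the cortex split was 3766 and 3700 with a median of 0.022, and the hippocampus median was -0.10. With TMM 7 members were called higher and 2 lower, the added one being Id1.

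The calls fell in different intervals. Between P1 and P7 cortex had 6 called higher and 1 lower (15.6% and 18.1% of all genes), hippocampus 3 called higher and 1 lower (11.2% and 6.92%), and olfactory bulb 0 called higher and 1 lower (7.59% and 2.98%). Between P7 and P14 cortex had 3 called higher and 1 lower (18.6% and 31.3%), hippocampus 5 called higher and 0 lower (12.5% and 17.7%), and olfactory bulb 8 called higher and 0 lower (20.4% and 26.6%). With TMM scaling the cortex splits of all genes went from 1850 higher and 2135 lower to 2165 and 1668 for the earlier interval, and from 2197 and 3696 to 3034 and 2718 for the later, where quantile normalization gave 2750 and 2922. The regions were scaled in separate tables, and whether the timing differs between them was not tested.

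**Figure D1:**
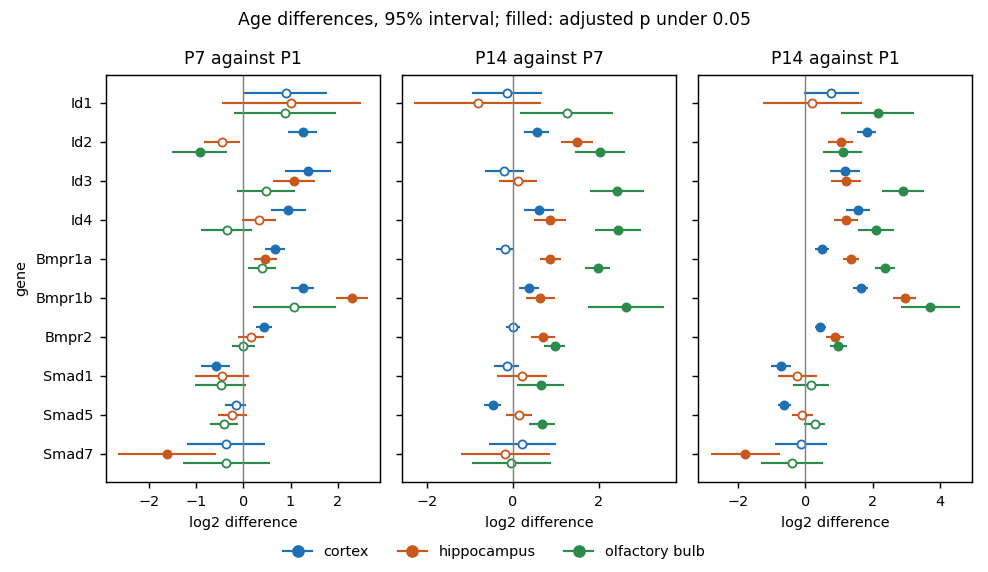
Log2 difference of each of the 10 genes between ages, one panel for each pair of ages, with 95% intervals from limma; filled points have an adjusted p under 0.05. In olfactory bulb 8 of the 10 genes are filled and positive for P14 against P7, and 0 are filled and positive for P7 against P1.

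Ligand genes were mostly too low to test. Of 13 (Bmp2 to Bmp8b, Bmp10 and 4 Gdf genes), 3 were tested in the cortex, 3 in the hippocampus and 2 in the olfactory bulb, with 1 called higher at P14 than at P1 in the cortex and 1 lower in the hippocampus. The shares over all genes are those given above for P14 against P1. The gene called lower was Bmp3, with 28.7 ± 3.64 at P1 and 1.19 ± 2.07 at P14 (SD, n = 3 each, limma adjusted p = 3.5e-04). Bmp7, a secreted ligand, rose in the cortex from 95.5 ± 46.5 to 157 ± 13.6 (SD, n = 3 and 4), a difference of 0.85 (limma adjusted p = 0.0154). Bmp7 was 71.5 ± 16.2 and 60.4 ± 20.5 in the hippocampus and 62.1 ± 1.65 and 110.2 ± 46.3 in the olfactory bulb (n = 3 each), not called in either. Bmp6, a related ligand, was not called in any region, with 33.5 ± 21.7 and 27.1 ± 9.86 in the cortex, 22.8 ± 18.5 and 8.99 ± 4.01 in the hippocampus, and 20.5 ± 7.71 and 43.7 ± 29.5 in the olfactory bulb.

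Bmpr1b (chr3:141837136-142169425, minus strand; here and below GENCODE on GRCm38), a type I receptor, had the largest P14 against P1 difference of the 3 receptors in each region. In cortex its libraries held 260.2, 307 and 312 reads at P1, 658, 769 and 675 at P7, then 997, 793, 904 and 975 at P14. In hippocampus they held 94.7, 92.7 and 106 at P1, 433, 489.9 and 536 at P7, then 669.6, 786 and 833 at P14. In both regions the 3 ages did not overlap and each step was called. The P14 against P1 difference was 1.64 ± 0.11 (SE) in the cortex and 2.95 ± 0.15 in the hippocampus (limma adjusted p = 2.1e-08 and 4.2e-08). In olfactory bulb the values were 32.3, 36.5 and 50.7 at P1, 82.3, 152 and 46.9 at P7, then 807, 426 and 423 at P14. There P1 and P7 overlapped, and all P14 libraries lay above both, by 3.72 ± 0.40 over P1 (adjusted p = 1.9e-05). The first olfactory bulb step was 1.08 and not called (adjusted p = 0.118), but was called by DESeq2 (1.25, adjusted p = 0.0188) and by limma without P7 replicate 3 (1.49, adjusted p = 0.0273). With quantile normalization the step after P7 was not called in the cortex (0.27, adjusted p = 0.0585) or hippocampus (0.33, adjusted p = 0.13).

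Bmpr1a (chr14:34410734-34503341, minus strand), the type I receptor found in most tissues, rose early in the cortex and late in the olfactory bulb. Cortex held 1134, 1281 and 1387 reads at P1, 2006, 2219.8 and 1817 at P7, then 1833, 1645, 1744 and 1874 at P14. The first step was 0.67 ± 0.10 (limma adjusted p = 2.1e-04), and P7 and P14 overlapped. In olfactory bulb the values were 528, 557 and 514, then 665, 827 and 627, then 2558, 3043 and 2717. The ages did not overlap, but the first step of 0.40 was not called (adjusted p = 0.0858) while the second was 1.98 ± 0.13 (adjusted p = 2.8e-06). DESeq2 called the first step too (0.42, adjusted p = 0.0199), as did limma without P7 replicate 3 (0.48, adjusted p = 0.0466). Hippocampus rose at both steps, from 995, 1060.3 and 925 to 1266, 1380.1 and 1482 and then 2699, 2435 and 2447. The first step there of 0.47 ± 0.11 (adjusted p = 0.0113) was not called without P1 replicate 3 (0.42, adjusted p = 0.0574). With quantile normalization Bmpr1a was lower at P14 than at P7 in the cortex (-0.51, adjusted p = 5.5e-04). Gm17110 overlaps Bmpr1a on the other strand, and without a stated strand setting their reads cannot be told apart.

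Bmpr2 (chr1:59763400-59879014, plus strand), the type II receptor, had the smallest P14 against P1 difference of the 3 in each region. Gm38125 overlaps it on the same strand. Cortex held 2875, 3099 and 3081 reads at P1, 3991, 4171 and 4105 at P7, then 3750.0, 4075, 4389 and 4251 at P14. Hippocampus held 2695, 3401 and 2603, then 3246, 3049 and 3425, then 4731, 5542 and 5724. Olfactory bulb held 2701, 2834 and 2797 at P1, 2709, 2681 and 2931 at P7, then 4822, 6096 and 5562 at P14. P14 lay above P1 without overlap in each region, by 0.45 ± 0.077, 0.88 ± 0.13 and 0.98 ± 0.11 (limma adjusted p = 1.9e-04, 1.4e-04 and 2.7e-05). These differences depended on the scaling: with quantile normalization they were 0.045, adjusted p = 0.618, in the cortex and -0.064, adjusted p = 0.6, in the hippocampus, where the sign turned. For P14 against P7 quantile normalization gave -0.44, adjusted p = 3.6e-04, in the cortex and 0.23, adjusted p = 0.108, in the olfactory bulb.

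Ratios within a library do not depend on the scaling between libraries. Per kilobase of merged exons, Bmpr1b was 24.6 ± 0.796 per 100 of Bmpr1a at P1, 37.1 ± 2.30 at P7 and 55.0 ± 2.70 at P14 in the cortex (SD, n = 3, 3 and 4), with no overlap between ages. In hippocampus the Bmpr1b ratio was 10.5 ± 1.47, 37.6 ± 1.09 and 32.4 ± 5.22, and in the olfactory bulb 8.0 ± 2.19, 13.6 ± 5.79 and 21.7 ± 10.3 (n = 3 each). In olfactory bulb P1 and P14 did not overlap, and P7 overlapped with both. In hippocampus P14 lay below P7 without overlap, and both lay above P1. Bmpr1a per 100 of Bmpr2 went from 54.4 ± 2.02 to 72.5 ± 13.6 and 143 ± 6.18 in the olfactory bulb without overlap. These ratios are descriptions with no test.

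**Figure D2:**
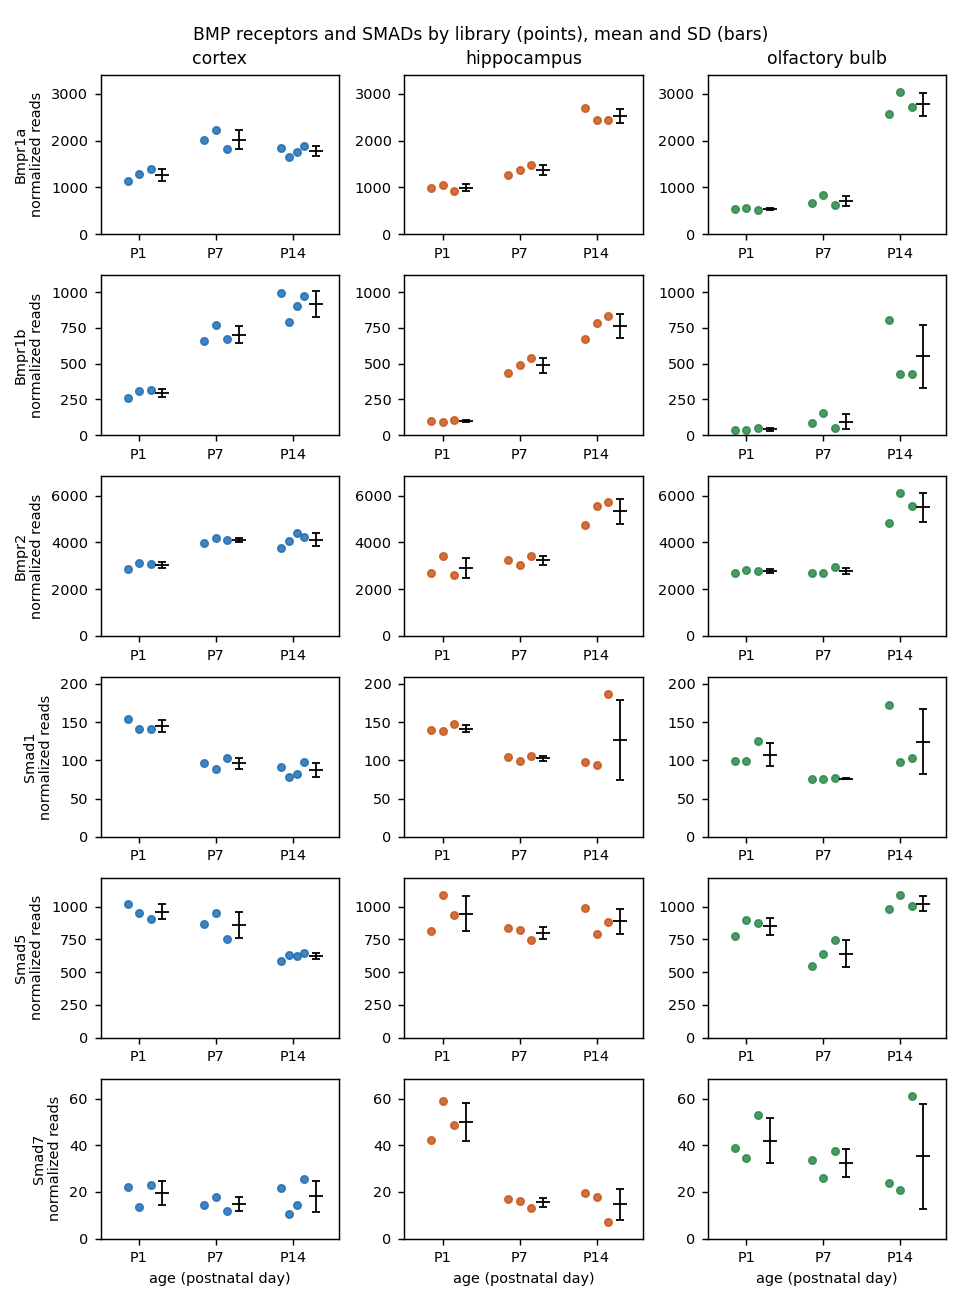
Normalized reads of the 3 receptors and 3 SMAD genes in each developmental library (points) with the mean and SD of each group, by age and region. The receptors lie highest at P14 in the hippocampus and olfactory bulb, Smad5 is lowest at P14 in the cortex, and Smad7 is highest at P1 in the hippocampus.

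Of 9 other receptors and co-receptors, 8 were in the tables, and 6, 7 and 7 were tested in the cortex, hippocampus and olfactory bulb. For P14 against P1, 0, 1 and 2 were called higher and 4, 3 and 4 lower. Of all genes, 24%, 21% and 24.8% were called higher and 40.3%, 28.5% and 31.4% lower. The medians of those tested were -0.45, -1.20 and -1.11, beside the medians over all genes given above. The type II receptor Acvr2a was called lower in all 3 regions: 267 ± 25.0 to 136 ± 22.5 in the cortex, 366 ± 12.1 to 159 ± 10.6 in the hippocampus and 429.5 ± 14.9 to 217 ± 106 in the olfactory bulb (differences -0.98, -1.20 and -1.11). Rgmb, a BMP co-receptor, was also called lower in all 3 (-1.78, -1.98 and -1.74). Its hippocampal call (limma adjusted p = 0.0483) was not made with TMM (-1.96, adjusted p = 0.0514) or quantile scaling (-1.19, adjusted p = 0.149).

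Smad1 (chr8:79338395-79399518, minus strand) and Smad5 carry the receptor signal to the nucleus. Smad1 held 154, 141 and 141 reads at P1 in the cortex, 96.4, 88.9 and 103 at P7, then 90.8, 78, 82.6 and 97.6 at P14. P1 lay above both later ages, and the P14 against P1 difference was -0.73 ± 0.14 (limma adjusted p = 3.6e-04). Hippocampus held 139.6, 138 and 147, then 104, 98.8 and 105, then 97.8, 93.7 and 186, with no step called. Without P14 replicate 3, its highest library, the P14 against P1 difference went from -0.24 to -0.56 and was called (adjusted p = 0.0325). In olfactory bulb Smad1 was 99.3, 98.6 and 125 at P1, 75.6, 75.8 and 77.1 at P7, then 173, 97.9 and 103 at P14. The rise after P7 was 0.65 ± 0.25 (adjusted p = 0.0491). It was not called without the filter on low values (adjusted p = 0.0567), without P14 replicate 1 (0.39, adjusted p = 0.115) or without P7 replicate 1, 2 or 3 (0.65, 0.65 and 0.66, adjusted p = 0.107, 0.106 and 0.1).

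Smad5 (chr13:56703010-56742377, plus strand), which overlaps 3 small RNA genes, fell late in the cortex, with 1019.7, 955 and 909 reads at P1, 867, 955 and 755 at P7, then 588, 628, 625 and 646 at P14. All P14 libraries lay below the earlier ones, and the differences were -0.46 ± 0.092 from P7 and -0.63 ± 0.092 from P1 (limma adjusted p = 0.00109 and 4.7e-05). Olfactory bulb held 777, 899 and 874 at P1, 543, 638 and 745 at P7, then 982, 1088 and 1001 at P14. There Smad5 rose after P7 by 0.68 ± 0.14 (adjusted p = 0.00208), the opposite of cortex, and its P14 against P1 difference of 0.27 was not called (adjusted p = 0.117) except by DESeq2 (0.35, adjusted p = 0.0302). Hippocampal libraries overlapped between P1 (817, 1087 and 936) and both P7 (833, 819.5 and 747) and P14 (989, 792 and 879.6). With quantile normalization Smad5 was called lower at P14 than at P1 in the hippocampus (-0.42, adjusted p = 0.0181).

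Smad7, the inhibitory SMAD, was called in the hippocampus and in neither other region. Its hippocampal libraries held 42.4, 58.8 and 48.5 reads at P1, 16.9, 16.3 and 13.2 at P7, then 19.3, 17.6 and 7.17 at P14. P1 lay above both later ages, which differed from it by -1.62 ± 0.47 and -1.79 ± 0.47 (limma adjusted p = 0.0331 and 0.00807). Without any 1 library of P1 or P7 the first call was not made although the difference stayed at -1.73 to -1.50 (adjusted p = 0.0853 to 0.137), whereas the second was made without any 1 library (0.00352 to 0.042). Cortex held 21.9, 13.6 and 23.1 reads at P1 and 21.6, 10.7, 14.5 and 25.4 at P14. Olfactory bulb held 38.7, 34.3 and 52.9 at P1 and 23.9, 20.7 and 61.1 at P14, and Smad7 was called lower there without P14 replicate 3 (-0.87, adjusted p = 0.0371).

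Of 3 other SMADs, 2 were tested in each region. Smad4, the common partner, fell from 264 ± 9.44 to 182 ± 16.2 in the cortex (-0.53) and from 279 ± 34.1 to 159 ± 17.6 in the hippocampus (-0.81). The cortex call of Smad4 was not made with TMM (-0.25, limma adjusted p = 0.0784), and Smad4 was not called lower in the olfactory bulb. Smad9, a receptor-activated SMAD, rose in the cortex (29.6 ± 11.3 to 87.4 ± 19.1) and olfactory bulb (16.3 ± 2.72 to 108 ± 40.0), and in the hippocampus the Smad9 difference of 0.98 was not called except with quantile scaling (1.48, adjusted p = 0.0463).

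Among 13 secreted or membrane inhibitors, 4, 5 and 5 were tested, with 1, 2 and 3 called higher at P14 than at P1 and 0, 1 and 1 lower, and medians of -0.21, 0.12 and 0.52. The shares over all genes stand with the regulators below. Chrdl1, a secreted protein that binds BMP ligands, was called higher in all 3 regions: 277 ± 5.76 to 1946 ± 293 in the cortex, 135 ± 9.29 to 547 ± 55.1 in the hippocampus and 164 ± 32.2 to 1999.7 ± 468 in the olfactory bulb. The Chrdl1 differences were 2.80, 2.01 and 3.59 (limma adjusted p = 3.3e-10, 8.6e-07 and 4.7e-07). Of 13 intracellular regulators, 2, 3 and 4 were called higher and 3, 4 and 5 lower. These counts lie near the shares over all genes (24%, 21% and 24.8% higher, 40.3%, 28.5% and 31.4% lower), and the medians of the regulators were -0.10, -0.12 and -0.20. The phosphatase genes Ctdsp1 (0.67, 1.40 and 1.98) and Ctdspl (1.29, 0.80 and 0.86) were called higher in all 3, and Zeb2, a SMAD-binding repressor, was called lower (-1.44, -1.51 and -0.99).

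The ID genes are the targets. Id3 (chr4:136143497-136145755, plus strand) rose before P7 in the cortex and hippocampus and after P7 in the olfactory bulb. Cortex held 120.5, 205 and 227 reads at P1, 594, 409 and 402 at P7, then 455, 469.8, 346 and 354 at P14, a first step of 1.37 ± 0.22 (limma adjusted p = 3.8e-04) followed by overlap. Hippocampus held 196, 181 and 185, then 286, 473 and 459.8, then 372, 483 and 449.7, with a first step of 1.08 ± 0.20 (adjusted p = 0.0029). Olfactory bulb held 33.3, 53.3 and 34.7 at P1, 56.5, 77.2 and 39.2 at P7, then 304, 327 and 282 at P14. There P1 and P7 overlapped and P14 lay far above, by 2.43 ± 0.28 over P7 (adjusted p = 6.2e-05).

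Id4 (chr13:48261228-48266026, plus strand) rose at both steps in the cortex, with 75.6, 85.6 and 99.6 reads at P1, 181, 188 and 139 at P7, then 308, 221, 222 and 286 at P14 and no overlap. In hippocampus the values were 214, 180.0 and 190.5, then 264, 273 and 203, then 484, 407 and 459, and the step after P7 was called (0.87 ± 0.17, limma adjusted p = 0.00268). Olfactory bulb held 117, 179 and 174 at P1, 114, 156 and 96.7 at P7, then 576, 852 and 584 at P14. The early ages overlapped there, and the later step was 2.45 ± 0.24 (adjusted p = 2.3e-05). A330033J07Rik and Gm49291 overlap Id4 on the other strand, and their reads cannot be told apart from its own.

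Id2 (chr12:25093799-25097140, minus strand) went up in the cortex before P7 and was lower at P7 in the other regions. Cortex held 186, 213 and 239 reads at P1 and 594, 469 and 469 at P7, a difference of 1.26 ± 0.14 (limma adjusted p = 1.8e-05). Hippocampus held 418, 426 and 376 at P1 and 233, 355 and 319 at P7, all lower, with a difference of -0.45 ± 0.17 that was not called (adjusted p = 0.104). Olfactory bulb held 319, 400.3 and 256 at P1 and 198, 221 and 107 at P7, also all lower (-0.93 ± 0.26, adjusted p = 0.0476). This last call was not made without any 1 library (-1.13 to -0.61, adjusted p = 0.0519 to 0.184), without the filter (0.0608) or with quantile normalization (0.052). At P14 Id2 lay above both earlier ages in each region, with 754, 662, 693 and 911 reads in the cortex, 859.9, 733 and 944 in the hippocampus and 722, 597 and 776 in the olfactory bulb. The differences from P1 were 1.82 ± 0.13, 1.05 ± 0.17 and 1.11 ± 0.26.

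Id1 (chr2:152736251-152737410, plus strand) was called in the olfactory bulb and varied widely between libraries. In olfactory bulb it held 6.45, 5.72 and 12.1 reads at P1, 19.0, 17.9 and 10.1 at P7, then 35.8, 62.0 and 23.6 at P14, and P14 lay above P1 by 2.15 ± 0.49 (limma adjusted p = 0.00337). The sum of 10 endothelial markers (Cldn5, Pecam1 and others) moved with it, being 22.5 to 29.0 at P1 and 310.1 to 1584 at P14, and that of 8 mural cell markers was 69.5 to 101 and 310.1 to 1318. Their part in the Id1 difference was not tested. The olfactory bulb step of Id1 from P7 to P14 was not called in the main fit. It was called with TMM (1.32, limma adjusted p = 0.0464), quantile scaling, a pseudocount of 8, edgeR and DESeq2. It was also called without P14 replicate 3 (1.58, limma adjusted p = 0.0210). In cortex Id1 was 12.5, 34.3 and 32.8 at P1, 54.8, 40.2 and 44.4 at P7, then 30.3, 67.3, 54.9 and 27.5 at P14. The P14 against P1 difference of 0.77 ± 0.38 was not called (adjusted p = 0.0929), but was with TMM (1.04, adjusted p = 0.0267), quantile scaling, edgeR and DESeq2 and without P14 replicate 4 (0.96, adjusted p = 0.0485). In hippocampus Id1 was 41.7, 35.6 and 29.5 at P1, 48.3, 92.6 and 84.2 at P7, then 9.67, 76.1 and 87.8 at P14. Without P14 replicate 1, the low library, the P14 against P1 difference went from 0.21 to 1.19 and was called (adjusted p = 0.0131).

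In hippocampus the endothelial sum was 49.2 to 129 at P1, 351 to 697 at P7 and 8.96 to 136 at P14, where Cldn5, Ly6c1, Esam and Tie1 were at 0 in all 3 libraries. There 1 read was worth 1.07 to 1.79 at P14, against 0.356 to 0.614 at P1. The mural sum was 157 to 254, 518 to 792 and 146 to 256, and the microglia sum 105 to 159.5, 304 to 1367 and 229 to 660.4. All 3 sums were thus higher at P7 than at P1, the interval in which Id3, Bmpr1a and Bmpr1b were called higher there. Endothelial and mural sums were lower again at P14, and Id2, Id4, Bmpr1a, Bmpr1b and Bmpr2 were called higher between P7 and P14. Choroid plexus markers, among them Ttr, summed to 321 to 1299 at P7 and 5692 to 11772 at P14, and the part of these cells in the hippocampal differences was not tested.

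**Figure D3:**
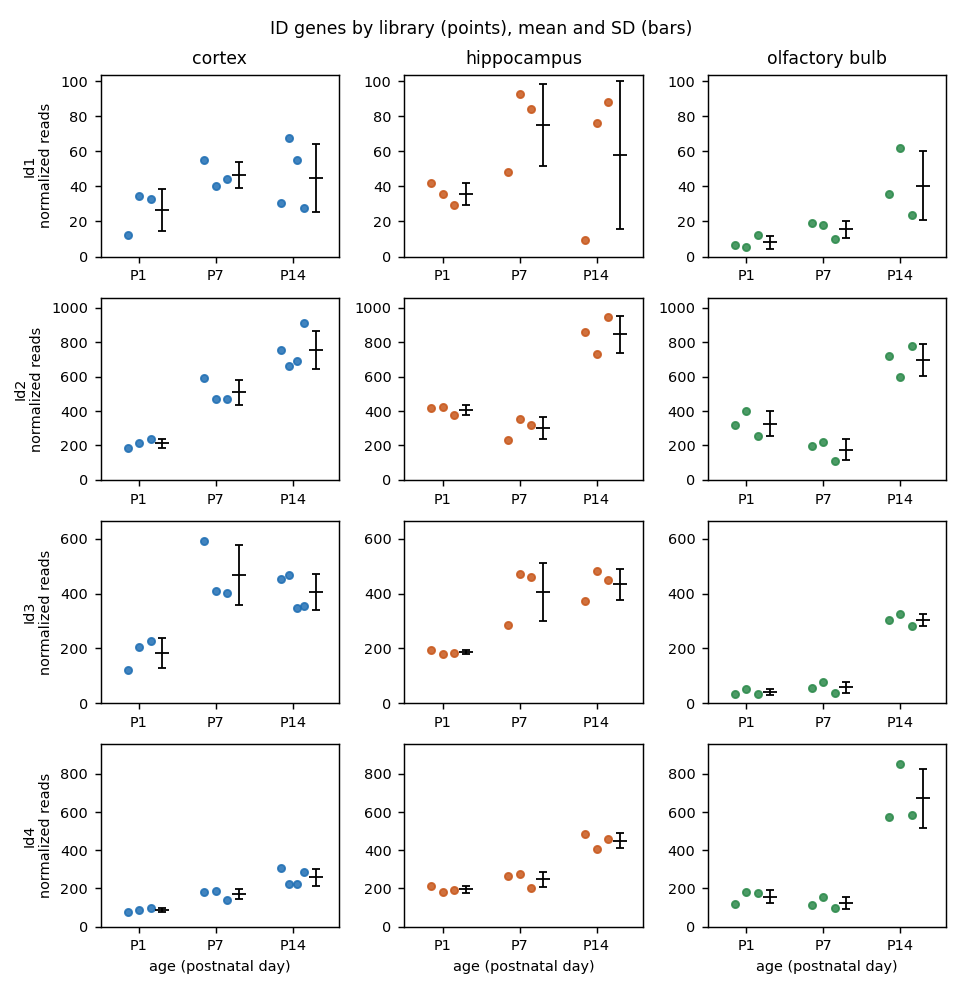
Normalized reads of the 4 ID genes in each developmental library (points) with the mean and SD of each group, by age and region. Id2 is higher at P7 than at P1 in the cortex and lower in the hippocampus and olfactory bulb, and in the olfactory bulb Id3 and Id4 are high at P14 alone.

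The make-up of the ID family, per kilobase within each library, is given here by region. At P1 Id2 was 65.3% ± 6.29 of the 4 genes in the olfactory bulb, 47.3% ± 1.90 in the hippocampus and 37.9% ± 5.21 in the cortex (SD, n = 3 each). Id3 was 43.0% ± 3.79 in the cortex at P1, 46.8% ± 2.32 at P7 and 35.3% ± 4.86 at P14. In olfactory bulb Id3 was 11% ± 1.06, 21.5% ± 1.48 and 25.5% ± 1.07. In hippocampus the Id2 share was 25.9% ± 0.347 at P7 and 45.9% ± 5.14 at P14, and that of Id3 46.9% ± 3.20 and 32.1% ± 3.66. Id4 was 20.1% ± 4.48, 21.7% ± 3.32 and 26.0% ± 4.75 in the olfactory bulb and 9.78% ± 1.33, 8.03% ± 1.45 and 10.4% ± 1.35 in the cortex. These shares are a description, with no test between regions.

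**Figure D4:**
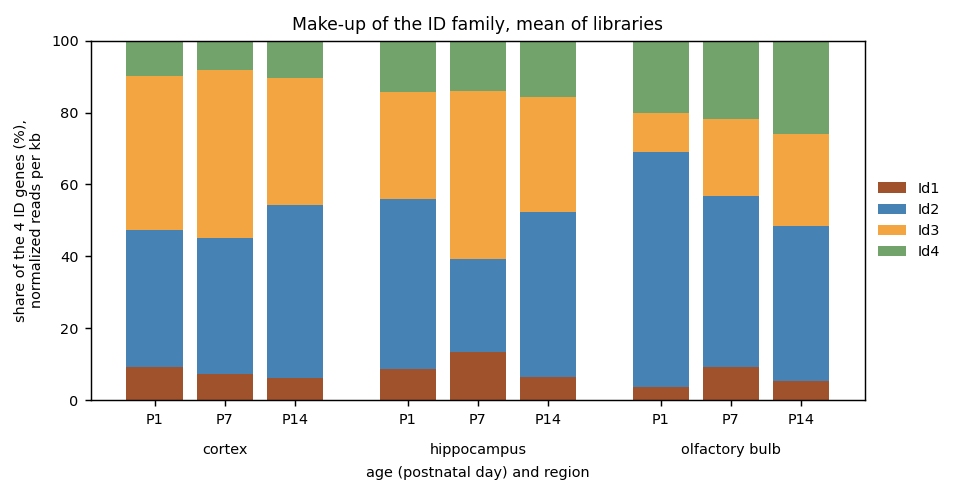
Share of each ID gene in the summed normalized reads per kilobase of the 4 genes, as the mean over the libraries of each group. Id2 fills 65.3% of the olfactory bulb bar at P1, and Id3 fills 46.8% of the cortex bar at P7.

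Of 10 other genes known as BMP targets, 4, 4 and 5 were tested in the cortex, hippocampus and olfactory bulb, with 2, 1 and 3 called higher at P14 than at P1 and 1, 1 and 2 lower, and medians of 0.68, -0.080 and 2.6. Hey1, a transcriptional repressor, was called higher in all 3 regions: 175 ± 13.4 to 379.5 ± 26.0 in the cortex, 148 ± 13.0 to 320.5 ± 94.3 in the hippocampus and 34.6 ± 9.17 to 337 ± 46.0 in the olfactory bulb. Dlx5, a homeobox gene of interneuron lineages, was called lower in all 3, from 720.1 ± 77.4 to 25.7 ± 9.59 in the olfactory bulb and to 0 in every P14 library of hippocampus. Of 9 genes for E proteins and their bHLH partners, 7, 8 and 8 were tested, with 1, 1 and 2 called higher and 5, 5 and 5 lower, and medians of -0.64, -0.57 and -0.62. Beside the counts of both lists, 24%, 21% and 24.8% of all genes were called higher and 40.3%, 28.5% and 31.4% lower. The E protein gene Tcf12 differed by -0.39, -0.54 and -0.61, and its cortex call was not made with TMM (-0.11, adjusted p = 0.324). Neurod1, a neuronal factor, went from 85.6 ± 11.5 to 0.629 ± 1.26 in the cortex, from 979.6 ± 46.1 to 40.0 ± 8.20 in the hippocampus and from 524 ± 127 to 1.13 ± 1.02 in the olfactory bulb. The neuron marker sums given above were lower at P14 as well, and their part in these differences was not tested.

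Levels between genes were compared as mean normalized reads per kilobase. In olfactory bulb at P1 the order was Bmpr2 (154), Id2 (133), Smad5 (115) and Bmpr1a (84.0), and Smad7 (9.29), Id1 (6.99) and Bmpr1b (6.68) were lowest and overlapped. At the top, Bmpr2 and Id2 overlapped, as did Id2 and Smad5. At P14 it was Bmpr1a (437), Bmpr2 (305), Id2 (286), Id4 (174) and Id3 (169.9), where Bmpr2 and Id2 overlapped, as did Id4 and Id3. In cortex Bmpr1a (199.6) led without overlap at P1, and Id2 (309.8) and Bmpr1a (279) overlapped at the top at P14. In hippocampus Id2 (167), Bmpr2 (161) and Bmpr1a (156) overlapped at P1, and Bmpr1a (398) and Id2 (347) at P14.

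Over the 28 developmental libraries, with each table centred on its own mean, Pearson r was 0.93 for Bmpr1a and Bmpr2, 0.92 for Id3 and Bmpr1a, 0.91 for Id3 and Bmpr1b and 0.29 for Id1 and Id2. Smad1 had an r of 0.03 with Bmpr1a, -0.11 with Bmpr1b and 0.61 with Smad5. The points share the 3 ages and the scaling of their table, so these values are descriptions without a test. Among 4155 genes, those nearest to Id3 were Arhgef26 (0.96), Ptprg (0.95) and Ssfa2 (0.95), those nearest to Id4 were Tnfrsf19 (0.95), Laptm4a (0.94) and Gbas (0.94), and those nearest to Bmpr1b were AI464131 (0.98), Ptpra (0.98) and Rftn2 (0.98).

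At P28 the targeted gene was looked at first. Gabbr1 held 1746, 1930.1, 1159 and 927 reads in cortex controls and 89.8, 96.5, 134 and 211 in cKO. In hippocampus it held 779.8 and 824 in controls and 167, 379.9, 152 and 256 in cKO, and in the olfactory bulb 318, 184 and 189 and 63.6, 99.5 and 78.2. Every cKO library lay below every control of its region. The Gabbr1 differences were -3.45 ± 0.29, -1.84 ± 0.39 and -1.48 ± 0.33, of which limma called the first (adjusted p = 4.4e-05) and not the others (adjusted p = 0.936 and 0.877).

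None of the 10 genes was called in the 3 P28 comparisons by limma, edgeR or DESeq2. Over all genes limma called 0.00982% in the cortex (1 of 10188, Gabbr1), 0% in the hippocampus and 0% in the olfactory bulb. At an unadjusted p under 0.05 limma had 221, 296 and 349 genes, and of the 10 it had 0, 1 (Id4) and 0. DESeq2 called 1 gene in the hippocampus and 22 in the olfactory bulb, and edgeR called 0 in both. The groups did not overlap for 0 of the 10 genes in the cortex (1.89% of all genes), 3 in the hippocampus (15%) and 1 in the olfactory bulb (10%).

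In cortex each of the 10 overlapped between genotypes. Id2 was 633, 432, 548 and 521 reads in controls and 292, 324, 527 and 586 in cKO, a difference of -0.35 with a 95% interval of -0.86 to 0.16. Bmpr1b was 895, 736, 685 and 564 in controls and 775, 630.4, 1089 and 560.3 in cKO, a difference of 0.057 (-0.42 to 0.53). Id1 was 37.0, 5.84, 30.7 and 49.1 in controls and 6.73, 4.20, 24 and 23.0 in cKO, with the widest interval, -1.02 (-2.59 to 0.54). The other 7 genes differed by -0.13 (Bmpr1a) to 0.35 (Smad7). Among the libraries whose labels name tamoxifen (1 cKO, 2 control) the differences were -0.73 for Id1, 0.13 for Id2 and -0.56 for Smad1. Among the others (3 cKO, 2 control) they were -0.69, -0.51 and 0.42. Endothelial marker sums were 117 to 626 in controls and 43.8 to 411 in cKO, and their part was not tested.

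In hippocampus Id2, Id4 and Smad1 were higher in all 4 cKO libraries than in both controls. Id4 held 265 and 422 reads in controls and 573, 1044, 453 and 531 in cKO, a difference of 0.88 (0.033 to 1.73, limma adjusted p = 0.936). Smad1 held 51.6 and 41.8 in controls and 75.5, 222, 72.7 and 64.7 in cKO (1.01, -0.22 to 2.24). Id2 held 375 and 379 in controls and 438, 624, 599 and 474 in cKO (0.48, -0.13 to 1.10). Without cKO replicate 2, which stood apart in Rn45s, these differences were 0.63 for Id4, 0.60 for Smad1 and 0.40 for Id2. That library had the highest reads of the region at P28 for the 3 receptors, the 3 SMAD genes, Id2 and Id4, with 3069 of Bmpr1a against 959.5 to 1652 elsewhere. Without it the difference of Bmpr1b went from 0.17 to -0.047, that of Smad5 from 0.32 to -0.12, that of Smad7 from 0.54 to 0.086, that of Bmpr1a from 0.47 to 0.14 and that of Bmpr2 from 0.41 to 0.034. The 7 genes whose groups overlapped had differences of 0.17 (Bmpr1b) to 0.54 (Smad7). Microglia marker sums were 134 to 178 in controls and 189 to 893 in cKO, and mural sums 151 to 222 and 293 to 434, both higher in every cKO library than in both controls, as for Id2, Id4 and Smad1. Oligodendrocyte sums were 4443 to 7441 and 5453 to 19455, endothelial sums 489.6 to 499 and 335 to 747, and choroid plexus sums 124800 to 260470 and 36184 to 200038, all with overlap. The astrocyte sum of cKO replicate 2 was 410905 against 134910 to 255290 in the other libraries. The part of these cells in the differences was not tested.

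In olfactory bulb Smad1 was higher in all cKO libraries than in all controls, with 90.3, 88.6 and 93.5 reads against 56.3, 57.9 and 75.7 (0.53, -0.21 to 1.26, limma adjusted p = 0.877), and by 0.47 without control replicate 2. Id1 held 24.1, 1.70 and 23.7 in controls and 24.1, 31.9 and 55.8 in cKO, a difference of 1.60. Id3 held 173, 30.6 and 283 in controls and 230.4, 249.9 and 312 in cKO, a difference of 1.18. The low value in both genes was control replicate 2, and without it the differences were 0.53 for Id1 and 0.24 for Id3. The other 7 genes differed by -0.30 (Bmpr2) to 0.50 (Smad7). Leaving control replicate 2 out also turned the sign for Bmpr2, from -0.30 to 0.088, and for Smad7, from 0.50 to -0.46. Endothelial marker sums were 88.4 to 266 in controls and 183 to 390.2 in cKO, and their part was not tested.

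Smad1 per 100 of Smad5, per kilobase, was 10.8 to 12.3 in hippocampal controls and 17.3 to 20.4 in cKO, with cKO replicate 2 included. In olfactory bulb it was 10.5 to 16.1 in controls and 17.7 to 21.3 in cKO. In cortex it was 7.45 to 17.6 and 9.68 to 15.4, with overlap. Bmpr1b per 100 of Bmpr1a was 14.9 to 29.9 in controls and 33.0 to 38.3 in cKO of olfactory bulb, and overlapped in cortex and hippocampus. Bmpr1a per 100 of Bmpr2 overlapped between genotypes in each region. These ratios are descriptions, with no test.

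**Figure D5:**
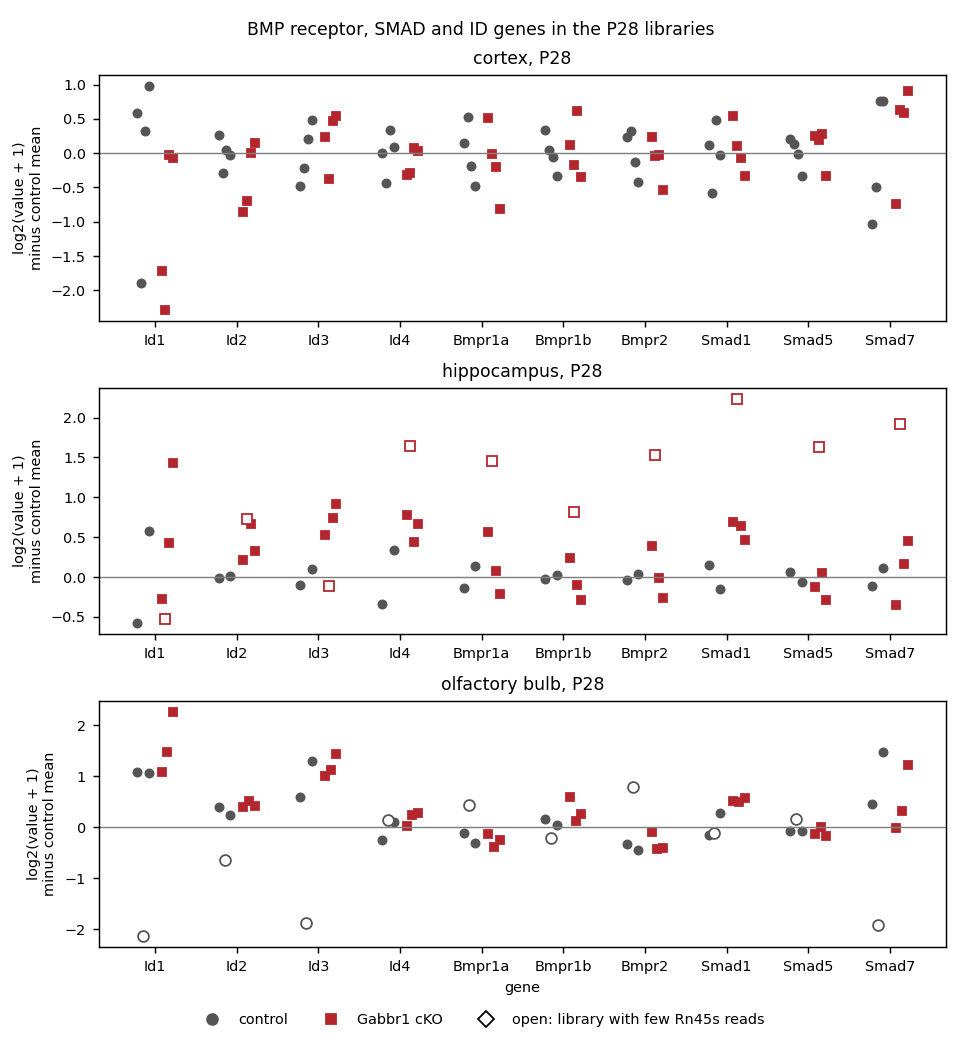
Log2(value + 1) of each of the 10 genes in each P28 library minus the control mean of its region, for control and Gabbr1 cKO libraries. Open symbols are hippocampus cKO replicate 2 and olfactory bulb control replicate 2; genotypes overlap for every gene in the cortex.

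Of the other pathway genes, 0 ligands, receptors, inhibitors, SMADs, regulators, targets or ID partners were called at P28 by limma. Bmp7 was 117 ± 45.4 in controls and 102 ± 17.6 in cKO of cortex, 186 ± 11.9 and 148 ± 30.6 in the hippocampus, and 174 ± 112 and 215 ± 15.8 in the olfactory bulb (SD, n = 4 and 4, 2 and 4, and 3 and 3).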

How the data were processed

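RNA of mouse astrocytes was sequenced in bulk in 48 libraries, made from total RNA with a low-input kit, per the labels' protocols. The submitters' processing notes name STAR 2.5.0a, DESeq2 1.20.0, FastQC, MultiQC and the build mm10. The counting program, annotation and strand setting are not given in the sources used here. Per gene the authors deposited a normalized signal. Each of the 6 tables covers 1 region and either the early ages or P28 and has its own scaling, so tests stayed within a table. Each signal value was a whole multiple of 1 step per library (100% of values, within 0.02 of a read; a weak check for olfactory bulb P28 cKO replicate 2, where 1 read is worth 0.995), which gave back the reads. A set of 27 symbols turned into dates was restored.

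Genes with a mean of at least 10 over the groups fitted were compared as log2(value + 1) with limma 3.58.1 (mean-variance trend) in R 4.3.3, with Benjamini-Hochberg adjustment and a threshold of 0.05. The pseudocount understates the change of low genes. The 3 early ages of a region entered 1 fit. The fits were also run on simulated data with a common spread for all genes and few changed genes. The age comparisons, with many genes called, are unlike that setting, and the outcome is not reported here. Alternatives were a pseudocount of 8, no filter, TMM and quantile scaling, edgeR 4.0.16 and DESeq2 1.42.0 on the recovered reads, leaving out each library, and, for cortex P28, the label format as a covariate. Intervals are 95%. Exon lengths, gene overlaps and promoters come from GENCODE release M21 and RefSeq on GRCm38. Samples were grouped by their labelled age, tissue and genotype, and replicate numbers were given in accession order.

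The members and the gene lists were chosen with earlier results of these data known. All 10 members are named. Of the pathway lists, genes are named that were called the same way at P14 against P1 in all 3 regions or were called at P28, or, where a list had none, the 2 with the highest mean. For Id3, Id4 and Bmpr1b the 3 most correlated genes are given. Some genes that this rule names are not reported here. Genes named outside this rule were chosen after their values were seen.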

Additional observations from a re-analysis of the deposited data

Results flagged for a closer look

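The 10 genes in the 4 groups of 4 libraries give 40 sets of values, of which 3 held a library far from the others, and chance gives about 1 in 20. In 2 of the 3 it was the same library. Smad5 was 296 normalized reads in cortex P28 cKO replicate 4, the lowest of its group. It is the only cortex cKO library whose label names tamoxifen. Among cortex controls the Smad5 mean was 332 where the label names tamoxifen and 419 where it does not. The part of the label format in this was not tested. In hippocampus P28 cKO replicate 2, Smad1 was 222 and Smad5 was 1485, both the highest of their group. That library also has few Rn45s reads.

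For Id2 and Smad5 the differences between ages had opposite signs in different regions, with no overlap between the ages. Whether the regions differ was not tested. Id2 at P7 differed from P1 by 1.26 on the log2 scale in cortex, by -0.45 in hippocampus and by -0.93 in olfactory bulb. The hippocampal Id2 difference was not called (limma adjusted p = 0.104), and the olfactory bulb call was not made without any 1 library. Smad5 at P14 differed from P7 by -0.46 in cortex and 0.68 in olfactory bulb, and from P1 by -0.63 and 0.27. This last Smad5 difference was not called (limma adjusted p = 0.117).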

How the results depend on the processing

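Of 120 member differences, 51 were called. Over the alternatives these gave 624 values, of which 598 kept direction and call, 24 lost the call and 2 changed sign, and 41 of the 51 neither lost the call nor changed sign. Of the 69 uncalled differences, 26 changed sign at least once and 12 were called under an alternative. The cause was not tested. The number of members called in hippocampus, P14 against P7, was 5 and became 3 with quantile normalization. In hippocampus, P7 against P1, it was 4 and ran from 2 to 3 without 1 library, the lowest without P1 replicate 3. In olfactory bulb, P7 against P1, it was 1 and became 0 with no filter, 2 with TMM, 0 with quantile normalization and 4 with DESeq2, and ran from 0 to 3 without 1 library.

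Log2 differences that changed sign were as follows. With TMM scaling they were cortex P14 against P7 Id1 0.052, Bmpr1a 0.0092 and Smad1 0.046, cortex P14 against P1 Smad7 0.12, olfactory bulb P14 against P7 Smad7 0.035. With quantile normalization they were cortex P14 against P7 Id1 0.12, Bmpr2 -0.44 and Smad1 0.028, cortex P14 against P1 Smad7 0.47, hippocampus P7 against P1 Bmpr2 -0.044, hippocampus P14 against P7 Id3 -0.092, Bmpr2 -0.020, Smad5 -0.25 and Smad7 0.73, hippocampus P14 against P1 Bmpr2 -0.064, olfactory bulb P7 against P1 Bmpr2 0.11, olfactory bulb P14 against P7 Smad7 0.26, cortex P28 cKO against control Smad1 -0.0040. With edgeR they were cortex P14 against P7 Id1 0.085, cortex P14 against P1 Smad7 0.11, hippocampus P14 against P7 Smad7 0.0062, olfactory bulb P14 against P7 Smad7 0.23. With DESeq2 they were cortex P14 against P7 Id1 0.11 and Smad1 0.023, cortex P14 against P1 Smad7 0.13, hippocampus P14 against P7 Smad7 0.028, olfactory bulb P7 against P1 Bmpr2 0.014, olfactory bulb P14 against P7 Smad7 0.20. With the label format of the cortex P28 libraries as a covariate they were cortex P28 cKO against control Bmpr1b -0.055 and Smad5 -0.012. Leaving out 1 library gave ranges that include a change of sign: cortex P14 against P7, Bmpr2 -0.024 to 0.051 and Id1 -0.36 to 0.064. Also cortex P14 against P1, Smad7 -0.37 to 0.067. Also hippocampus P14 against P7, Id3 -0.11 to 0.25, Id1 -1.35 to 0.18, Smad1 -0.10 to 0.39 and Smad7 -0.41 to 0.25. Also hippocampus P14 against P1, Smad5 -0.19 to 0.014 and Id1 -0.34 to 1.19. Also olfactory bulb P7 against P1, Bmpr2 -0.043 to 0.021. Also olfactory bulb P14 against P7, Smad7 -0.50 to 0.25. Also olfactory bulb P14 against P1, Smad1 -0.091 to 0.32. Also cortex P28 cKO against control, Bmpr1a -0.34 to 0.10, Bmpr2 -0.23 to 0.058, Smad1 -0.13 to 0.23, Bmpr1b -0.13 to 0.19 and Smad5 -0.012 to 0.24. Also hippocampus P28 cKO against control, Id1 -0.32 to 0.84, Bmpr1b -0.047 to 0.32 and Smad5 -0.12 to 0.52. Also olfactory bulb P28 cKO against control, Bmpr2 -0.53 to 0.088 and Smad7 -0.46 to 1.24.

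Where leaving out a library left 1 in a group, it was assumed to vary like the others. No paired analysis was made, because the comparisons were between ages or between genotypes. The 2 hippocampal controls limit the P28 comparison there, and genes with few reads, such as Smad7 and Id1, have the widest intervals.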

Other observations

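Some pathway genes had P28 groups that did not overlap, although none was called by limma. Over all genes tested the groups did not overlap for 1.89% in the cortex, 15% in the hippocampus and 10% in the olfactory bulb. The pathway genes below were chosen after their values were seen, and no count over the lists is given. Chrdl1 was 1535 to 2012 normalized reads in cKO and 1209 to 1475 in controls of cortex (0.43 on the log2 scale, limma adjusted p = 0.9999). In hippocampus Chrdl1 was 197 to 527 in cKO and 110.3 to 187 in controls (0.98, adjusted p = 0.936). Hey1 was 319 to 394 in cKO and 131 to 248 in controls of olfactory bulb (0.90, adjusted p = 0.877). Bmp6 and Bmp7 had lower values in all hippocampal cKO libraries than in both controls, with differences of -1.50 and -0.35 (adjusted p = 0.936 for each).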
